A study of Mus musculus with 5 samples.

Results

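Fibroblasts of the tumor stroma were looked for in 5 mouse synovial sarcomas (SyS) profiled by single-cell RNA sequencing, and 141 cells met the rule among 42516 cells kept, or 0.332%. Of these, 123 lay in the PD+MP tumor, 9 in MP+BP, 6 in BP replicate 1, 3 in MP and 0 in BP replicate 2. Members were chosen by their own counts of unique molecular identifiers (UMIs, each a captured RNA molecule). A cell had to hold at least 750 detected genes and at most 25% mitochondrial UMIs. It also had to hold a UMI of at least 4 of 8 fibroblast genes (*Dcn*, *Lum*, *Dpt*, *Pdgfra*, *Mfap5*, *Clec3b*, *Pi16* and *Col14a1*). Excluded were cells with over 2 UMIs of *Rgs5* (pericytes), any UMI of *Cdh5* (endothelial cells), over 3 summed UMIs of *C1qa*, *C1qb* and *C1qc* (macrophages) or 5 or more UMIs of *Adgrb3* (SyS cells). The levels of these 14 genes are therefore a description of the choice and not a result. The 6 cells of BP replicate 1 went partly against the name, and the 3 of MP were all among the cells with the highest doublet scores of their tumor. The account below therefore rests on PD+MP.

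Fibroblasts are the mesenchymal cells that secrete collagen and other fibers of the extracellular matrix and that repair connective tissue after injury. In many tissues, an adventitial population marked by *Pi16* and *Dpp4* lies around vessels and fascia, and parenchymal fibroblasts lie deeper among the other cells. In carcinomas, fibroblasts take on contractile myofibroblast, cytokine-producing inflammatory and MHC class II antigen-presenting states, while sarcomas are themselves mesenchymal, which makes their stromal fibroblasts harder to separate from tumor cells.

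All 5 tumors came from mice carrying *hSS2*, a human *SS18::SSX2* fusion knocked into *Rosa26*, which was switched on in the limb by injected TATCre protein at 8 days of life, and they were harvested at morbidity. The labels give only their histology. It was biphasic (BP) for 2 tumors, monophasic (MP) for 1, both of these (MP+BP) for 1, and poorly differentiated with monophasic (PD+MP) for 1. There were no control tissues and 1 tumor for each label other than BP, so no p-value could be given and each comparison below describes the tumor it was made in. The leading number of both BP labels is the same, and whether they came from 1 animal was not stated.

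The libraries held 8931 to 11565 called cells and 89996321 to 118649103 UMIs each, and 6686 to 10342 cells per tumor passed the filters. Of 51437 distinct barcodes, 231 (0.449%) occurred in more than 1 library. The barcode of 1 fibroblast was among them, and 0 barcodes were members in 2 libraries. Intervals below are exact 95% intervals, a limit beside a count of 0 is 3 counts of the total, and both cover counting error only.

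Cells that met the rule made up 1.45% of kept cells in PD+MP (1.21% to 1.73%). Their share was 0.0966% in MP+BP (0.0442% to 0.183%), 0.0897% in BP replicate 1 (0.0329% to 0.195%) and 0.0389% in MP (0.00802% to 0.114%). In BP replicate 2, 0 of 10342 cells allowed a share of up to 0.029%. The PD+MP interval lay above those of the other 4 tumors. These are shares of the cells captured, and how far they follow the tissue was not tested. In PD+MP, 36 fibroblasts held all 8 genes, 44 held 7, 26 held 6, 12 held 5 and 5 held the minimum of 4. Outside PD+MP, 11 of 18 members stood at the minimum.

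**Figure D1:**
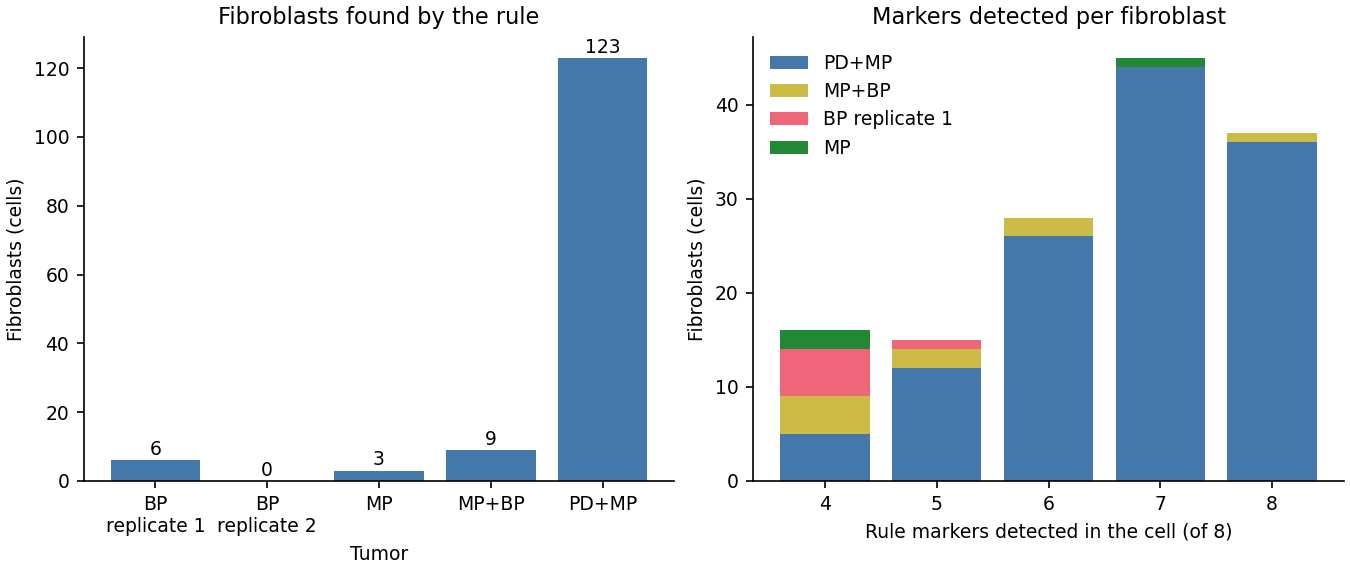
Left, the number of fibroblasts found in each of the 5 tumors (bars, cells), with 123 in PD+MP and 0 to 9 in the others. Right, the number of fibroblasts by how many of the 8 rule genes each held, stacked by tumor, with the PD+MP cells mostly at 6 to 8 genes and most cells of the other tumors at 4.

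The rule genes, which chose the members, are described first. Every one of the 123 held *Dcn*, the collagen-binding proteoglycan decorin, 120 held *Lum*, 104 held *Clec3b*, 94 held *Dpt* and 72 held *Pi16*. In CPM, the standard scaling of a gene's counts by all UMIs of the summed cells, *Dcn* stood at 4411, *Lum* at 1387, *Clec3b* at 1374, *Dpt* at 752 and *Pi16* at 354. *Pdgfra*, the receptor often used to mark fibroblasts, was low at 165 CPM in 84 cells, and SyS cells held it too, at 27.4 CPM in PD+MP and 83.5 to 102 CPM in the other 4 tumors. Of the 12 PD+MP cells just outside the rule, with 3 of the 8 genes, the summed *Dcn* level was 523 CPM, *Col3a1* was 5848 CPM and 2 held EGFP, the reporter of the *hSS2* allele. The 5 cells just inside, with 4 genes, had *Dcn* at 3963 CPM, *Col3a1* at 14435 CPM and no EGFP. A further 17 cells held 4 or more of the genes but also 5 or more *Adgrb3* UMIs. Their median of 28842 UMIs was over that of the members (8160) and of the SyS cells (10539).

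Markers of other cell types were compared after leaving out the genes of every gate, since those were fixed by the choice. Without *Cdh5* and *Pecam1*, 6 endothelial markers (*Kdr*, *Flt1*, *Tie1*, *Emcn*, *Egfl7* and *Esam*) summed to 5.48 CPM in fibroblasts, on 6 UMIs, and to 3819 CPM in 70 endothelial cells. *Pecam1* itself had 117 UMIs in 44 cells, of which 2 held any of the 6. Without the C1q genes, 9 macrophage markers summed to 89.6 CPM in fibroblasts, 43.3 CPM in SyS cells and 19561 CPM in 768 macrophages, with *Mrc1* at 0. Of the 5 with enough UMIs to test, 1 (*Ptprc*, 11 UMIs) was over 4-fold higher than in SyS cells. Without the fibroblast holding most UMIs of this list, 3 could be tested and 0 were. Without *Rgs5*, 7 pericyte markers summed to 206 CPM in fibroblasts, 29.2 CPM in SyS cells and 4442 CPM in 38 pericytes, with *Higd1b* at 0. Of the 4 with enough UMIs to test, 2 were over 4-fold higher in fibroblasts than in SyS cells. These were *Ndufa4l2*, at 140 CPM in fibroblasts and 1206 in pericytes, and *Abcc9*, at 21.9 and 824 CPM. Without *Adgrb3*, 14 SyS markers summed to 77.7 CPM in fibroblasts, 88.2 CPM in macrophages and 1047 CPM in SyS cells, and 6 of them (*Hes5*, *Insm1*, *Cbln4*, *Spint1*, *Esrp1* and *Fstl4*) were at 0 in fibroblasts. Of the 7 Schwann cell genes and 6 adipocyte genes, none reached the minimum for testing, and their sums were 21.9 and 6.40 CPM. Scrublet, which scores cells that look like mixtures of 2 cells, placed 4 of the 123 among the highest-scoring cells. In all, 52 of the 123 held a UMI of *Ptprc*, *Pecam1*, *Epcam* or *Sox2*, and what these UMIs came from was not tested.

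The fibroblasts of PD+MP were set against its 5149 SyS cells, defined by 5 or more UMIs of *Adgrb3*, under 4 of the fibroblast genes and the same limits for the other cell types. Counts were summed over each set (1094277 and 69881069 UMIs), scaled to CPM and compared as a ratio. A gene was tested when it had at least 10 UMIs in fibroblasts or would have had them there at its SyS level, and a gene at least 4-fold apart was called. Of 10979 genes tested, 995 (9.06%) were called higher in fibroblasts and 1353 (12.3%) lower. The median log2 ratio of all genes tested was -0.57, so an average gene sat below its SyS level on this scale. With TMM scaling, which resets that center, the median was -0.26 and 52.4% of calls were higher, against 42.4% without it, and 0 called genes among the 299 named or listed ones with a ratio changed direction (*Twist1*, not called, moved from -0.18 to 0.13). The 17 listed collagens alone held 5.39% of fibroblast UMIs and 0.0306% of SyS UMIs. The 8 rule genes and the genes of the exclusions were left out of all counts.

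Fibrillar collagen genes were far higher in the fibroblasts than in SyS cells. Fibroblasts had to hold several rule genes, such as the matrix genes *Dcn* and *Lum*, and SyS cells had to hold few. The direction of genes expressed together with these is therefore partly set by the choice. The 17 cells with enough rule genes but too many *Adgrb3* UMIs were in neither set, and held *Col3a1* at 5067 CPM. How much of the collagen difference came from the choice was not tested. Of 17 collagens tested, 15 were called higher and 0 lower, with a median log2 ratio of 8.75 beside -0.57 for all genes. *Col3a1* (GRCm38, chromosome 1, 45311538 to 45349706, plus strand), which encodes type III collagen of loose connective tissue, was at 22762 CPM in fibroblasts and 18.3 in SyS cells, a 1241-fold (1173 to 1313) ratio. Individual fibroblasts ranged from 1097 to 75819 CPM of *Col3a1* with a median of 19147. All 123 lay above the 95th percentile of SyS cells for *Col3a1*, and the same held for *Col1a1* and *Col1a2*. The type I collagen chains *Col1a1* (chromosome 11, 94936224 to 94953042, plus strand) and *Col1a2* (chromosome 6, 4504814 to 4541544, plus strand) were at 12872 and 9826 CPM against 27.6 and 2.85 CPM. Other genes overlap *Col3a1* and *Col1a2* on the same strand (Gm47302 and Gm43921), which may have affected their counts.

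The collagen genes did not all differ alike. Type VI collagen, which links cells to the fibrillar matrix, was high in all 3 chains, with *Col6a3* at 989 against 0.773 CPM. *Col5a3*, a regulatory chain of fibril assembly, gave 2874-fold (1213 to 8936) over 5 SyS UMIs. At the other end were the basement membrane collagens. *Col4a1* was 4.68-fold higher (not called without the 52 cells above), *Col4a2* was 3.28-fold higher and not called, and *Col18a1* was at 63.1 against 62 CPM, a ratio of 1.02 (0.79 to 1.29). *Nid1*, a basement membrane linker protein, nonetheless was at 976 against 1.12 CPM, a 874-fold (694 to 1115) ratio, with 487 CPM in endothelial cells and 497 CPM in pericytes.

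Non-collagen matrix genes followed the same direction, which for them too is partly set by the choice of cells. All 8 leucine-rich proteoglycans tested, of 10 listed, were called higher, with a median log2 ratio of 7.63. *Bgn*, biglycan, was at 2973 against 1.32 CPM and was found in 119 of 123 cells, while *Fmod*, fibromodulin, was found in 23 cells. Of 13 elastic fiber and microfibril genes, 11 were called higher and 0 lower (median log2 ratio 5.71). *Eln*, the elastin precursor, was at 1878 against 0.644 CPM, yet individual fibroblasts ran from 0 to 23362 CPM with a median of 396. *Fbn1*, the main microfibril protein, was found in 121 cells at 1829.5 CPM. Of 12 collagen processing and crosslinking genes, 10 were called higher and 0 lower (median log2 ratio 4.54). The crosslinking enzyme *Lox* was at 445 against 0.758 CPM (587-fold (441 to 795)) and its relative *Loxl1* at 616 against 1.35 CPM. The collagen chaperone *Serpinh1* differed less, at 2134 against 416 CPM (5.13-fold (4.92 to 5.35)), and SyS cells also held it. The hydroxylases *Plod1* and *P4ha1* were within 4-fold.

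Genes that cut matrix were high as well. Of 17 matrix proteases and their inhibitors, 14 were called higher and 0 lower (median log2 ratio 5.61). *Mmp2*, a gelatinase, was at 745 against 2.22 CPM in 117 cells, and *Mmp3*, stromelysin, at 241 against 0.0716 CPM in 50 cells. The aggrecan-cleaving enzyme *Adamts5* gave 1122-fold (723 to 1835), and the inhibitors *Timp2* and *Timp3* were at 1097 and 993 CPM against 37.9 and 31.4 CPM. *Mmp14*, a membrane-bound activator of *Mmp2*, was within 4-fold at 464 against 188 CPM. *Mmp13* rested on 1 cell, which held 93% of its 43 UMIs.

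**Figure D2:**
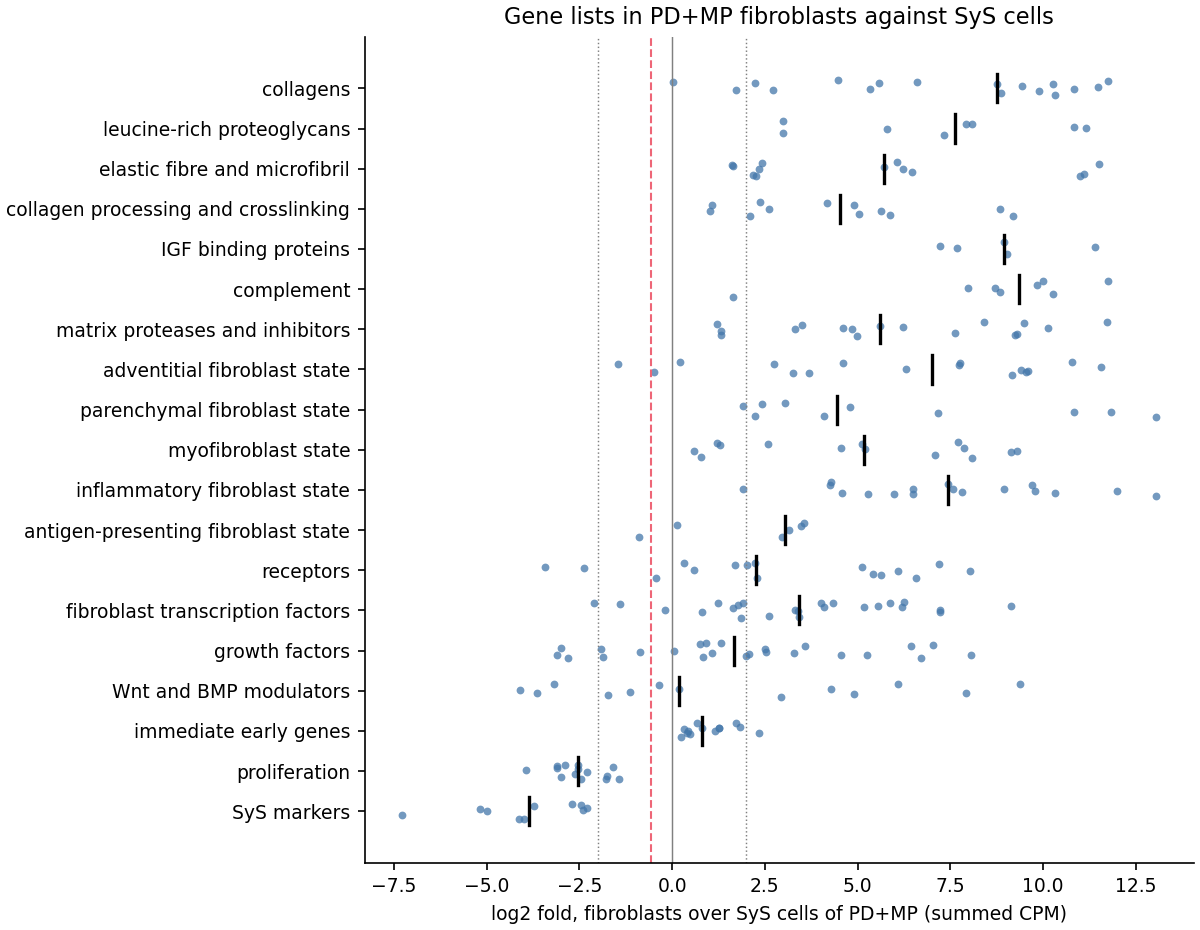
Log2 ratio of summed CPM, fibroblasts over SyS cells of PD+MP, for each tested gene (points) of 19 gene lists, with the list median (black bars), the median of all 10979 genes at -0.57 (dashed line) and the 4-fold limits (dotted lines). Matrix and complement lists sit far to the right, and the proliferation and SyS marker lists lie wholly left of 0.

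Complement and inflammatory genes were also among those far above SyS cells. Of 11 complement genes, 8 were tested, 7 were called higher and 0 lower, with a median log2 ratio of 9.34. The C1 inhibitor *Serping1* was at 1713 against 1.4 CPM, the protease *C1s1* at 508 against 0.501 CPM, the central component *C3* at 590.3 against 0.644 CPM and *C4b* at 489.8 against 0.143 CPM, although reads of *C4b* and its near-identical copy C4a cannot be told apart with confidence. *Serping1* was found in 119 cells and *C3* in 59, so the latter was carried by part of the fibroblasts. Of 17 genes listed for the inflammatory fibroblast state, 16 were called higher and 0 lower (median log2 ratio 7.42). The neutrophil chemokine *Cxcl1* was at 506 against 0.572 CPM in 64 cells, the alarmin *Il33* at 492 against 1 CPM in 82 cells and the cytokine *Il6* at 51.2 against 0.229 CPM in 22 cells. The eosinophil chemokine *Ccl11* had 132 UMIs in 43 fibroblasts and 1 UMI in SyS cells, a ratio of 8429.6 with an interval of 1487 to 335441. The monocyte chemokines *Ccl2*, *Ccl7* and *Ccl8* were higher than in SyS cells but lower than in macrophages, with 86.8 CPM of *Ccl8* against 1524. The inflammatory list as a whole summed to 2659 CPM in fibroblasts, 2687 in macrophages, 2014 in pericytes and 241 in endothelial cells. That list was therefore not particular to fibroblasts. *Saa3* and *Il1rl1* were called on few cells, 1 of which held 48.7% and 47.5% of their UMIs.

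The lists drawn up for other fibroblast states were mostly higher too. Of 16 adventitial genes, 13 were called higher and 0 lower (median log2 ratio 7.01), and of 10 parenchymal genes, 9 and 0 (4.44). The adventitial genes summed to 4542 CPM in fibroblasts, 1999 in endothelial cells and 489 in pericytes. The parenchymal genes summed to 2895, 4864 and 5806 CPM in the same order, so that list was not particular to fibroblasts. *Ly6a*, a surface antigen of mouse mesenchymal progenitors, was at 1036 against 1.53 CPM in 109 cells, *Cd34* at 239 against 0.415 CPM in 79 and the peptidase *Dpp4* at 87.7 against 0.114 CPM in 33. *Apod*, an apolipoprotein, gave 1039 against 0.286 CPM in 97 cells. Of 15 myofibroblast genes, 14 were tested, 10 were called higher and 0 lower (5.16). That list summed to 6191 CPM in fibroblasts and 10535 in pericytes. *Postn*, periostin, was at 2886 against 5.17 CPM in 119 cells, and the collagen-associated *Cthrc1* at 747 against 3.21 CPM in 85. The contractile genes were found in fewer cells, *Acta2* in 30 (138 against 5.85 CPM) and *Tagln* in 37 (302 against 1.45 CPM), while *Myl9*, *Tpm1* and *Tpm2* were within 4-fold.

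The antigen-presenting list depended on 1 cell. Of its 7 genes, 6 were tested and 4 (*Cd74*, *H2-Aa*, *H2-Ab1* and *H2-Eb1*, which form or guide MHC class II) were called higher, with a median log2 ratio of 3.05. A cell of 16295 UMIs, among those with the highest Scrublet scores, held 90.1% of the list's UMIs, including 109 of 116 of *Cd74* and 68 of 71 of *H2-Ab1*. It also held 3 UMIs of *Ptprc*, the leukocyte antigen, all 3 UMIs of the dendritic cell gene *Xcr1*, and 312 of *Col3a1*. Without it, 3 genes were tested, 0 were called higher, 1 was called lower and the median was -0.55, near that of all genes. Macrophages held 974 CPM of *Cd74*.

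Insulin-like growth factor (IGF) binding proteins, which carry IGF outside cells, were higher as a group. All 5 tested, of 6 listed, were called higher (median log2 ratio 8.94). *Igfbp4* was at 1970.2 against 3.75 CPM in 113 cells, *Igfbp6* at 615 against 0.229 CPM in 101 and *Igfbp7* at 1713 against 3.49 CPM in 119. Endothelial cells and pericytes held more *Igfbp7*, at 3965 and 3764 CPM. *Igfbp3* was at 2468 against 16.6 CPM but was found in only 55 of 123 cells. The ligands split. *Igf1* was higher in fibroblasts, at 848 against 71.1 CPM (11.9-fold (11.1 to 12.8)), with 319 CPM in macrophages. *Igf2* (chromosome 7, 142650766 to 142666816, minus strand, overlapped there by Gm49394 and Mir483) was lower, at 146 against 1260 CPM, which is 8.62-fold (7.38 to 10.1) lower. The receptor *Igf1r* was 4.68-fold higher, a call lost without the 52 cells that held *Ptprc*, *Pecam1*, *Epcam* or *Sox2*.

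Of 26 growth factors, 24 were tested, 12 were called higher and 3 lower (median log2 ratio 1.65). Besides *Igf2*, those lower were the ErbB ligand *Nrg1*, at 109 against 863 CPM, and the platelet-derived growth factor *Pdgfa*, at 16.4 against 116 CPM. Among those higher, *Pdgfd* gave 268-fold (163 to 461), *Fgf2* 130.1-fold (80.7 to 214) and *Fgf7*, a factor made by mesenchyme for epithelia, 104-fold (68.9 to 158). *Gas6*, the ligand of the *Axl* receptor, was at 485 against 20.6 CPM, and *Axl* itself at 205 against 2.13 CPM. *Vegfa*, the main angiogenic factor, was at 71.3 against 68.6 CPM, a ratio of 1.04 (0.82 to 1.3). Of 16 receptors, 10 were called higher and 2 lower (median log2 ratio 2.25). The epidermal growth factor receptor *Egfr* was at 275 against 1.06 CPM, the TGF-beta receptor *Tgfbr2* at 601 against 12.2 CPM and *Pdgfrb* at 104 against 0.716 CPM, while *Ptch1*, the Hedgehog receptor and target, was at 27.4 against 293 CPM and the glypican *Gpc3* at 133 against 687 CPM, the last not called without the 52 cells.

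Modulators of Wnt and bone morphogenetic protein (BMP) signals went both ways, with 6 called higher and 3 lower of 13 tested from 18 listed (median log2 ratio 0.18). The secreted Wnt inhibitors *Sfrp1*, *Sfrp2* and *Sfrp4* were at 264, 639.7 and 97.8 CPM against 0.401, 9.44 and 0.401 CPM. Their relative *Frzb* had 1 UMI in fibroblasts and 15.5 CPM in SyS cells, a 17-fold (3.04 to 672) lower level. The Wnt agonist *Rspo3* was at 11 against 136 CPM (12.4-fold (7.09 to 24) lower) and the BMP antagonist *Grem1* had 2 fibroblast UMIs against 16.7 CPM, 9.14-fold (2.52 to 75.5) lower.

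Of 25 transcription factors known from fibroblasts, 24 were tested, 15 were called higher and 1 lower, with a median log2 ratio of 3.41. *Ebf1* was at 1496 against 139.6 CPM and *Ebf2* at 385 against 22.5 CPM. Pericytes held more *Ebf1* (2688 CPM) and less *Ebf2* (146 CPM) than fibroblasts. The whole list summed to 5280 CPM in fibroblasts and 7284 CPM in pericytes. *Hic1*, a repressor that marks quiescent mesenchymal progenitors, was at 33.8 against 0.458 CPM in 25 cells (73.8-fold (44.8 to 122)). *Osr1* gave 46.4-fold (33.1 to 64.8), *Twist2* 149-fold (87.7 to 262) and *Meox2* 562-fold (223 to 1816). The mesenchymal factors *Prrx1* and *Twist1* differed less, at 389 against 126 CPM and 226 against 256 CPM, and *Scx*, the tendon factor, was lower at 5.48 against 23.7 CPM, a call that TMM scaling ended. Immediate early genes, which dissociation can induce, were higher by small ratios: 1 of 13, *Fosb* at 1049 against 209 CPM, was called, *Fos* was at 1859.7 against 1477 CPM, and the list median was 0.81.

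Outside all lists, 15 genes were named for the highest lower bound of the ratio. *Lbp* (chromosome 2, 158306493 to 158332852, plus strand), the lipopolysaccharide-binding protein, had 268 UMIs in 76 fibroblasts and 2 in all SyS cells, or 245 against 0.0286 CPM, a ratio of 8557 with an interval of 2346 to 71024. Endothelial cells and pericytes held 0 UMIs of *Lbp*. *Cilp*, an extracellular matrix protein of cartilage and fibrotic tissue, was at 564 against 0.157 CPM (3582-fold (1988 to 7213)). The matricellular proteins *Ccn3* and *Ccn5* were at 448 and 245 CPM, the secreted serine protease *Htra3* at 313 CPM and the extracellular superoxide dismutase *Sod3* at 164 CPM, each with under 13 SyS UMIs. *Rarres2*, the chemoattractant chemerin, was at 506 CPM, with 197 CPM in pericytes, and the oxidase *Nox4* at 299.7 CPM, with 166 CPM in endothelial cells. *Nid1*, described above, was also among the 15. *Adgrd1*, *Medag*, *Scn7a*, *Dpep1*, *Cmah* and *Ms4a4d* completed them, between 71.3 and 241 CPM. *Penk*, the opioid precursor, was at 45.7 against 5.6 CPM (8.17-fold (5.96 to 11)) and was found in 24 cells.

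Genes of the tumor cells were low in fibroblasts. EGFP had 5 UMIs in 4 of 123 fibroblasts, 4.57 CPM against 35.8 CPM in SyS cells and 1.81 in macrophages, where the reporter should be absent. After each cell was thinned to 2000 UMIs, 0 of 119 fibroblasts held EGFP, which allows a share of cells with a UMI at this depth of up to 2.52%, against 5.88% of 765 SyS cells and 0.400% of 750 macrophages. Unthinned, the shares were 3.25%, 30% and 1.30%. *Ss18*, the mouse gene whose human counterpart is in the fusion, was at 49.3 against 72.9 CPM. The 10 SyS markers tested were all called lower (median log2 ratio -3.86), from the neurexophilin *Nxph1* with 1 UMI (141 CPM in SyS cells) to *Insm1* with 0, at least 4.86-fold lower (not called with TMM scaling). Since SyS cells were chosen by *Adgrb3*, the direction of such genes is partly set by the choice. Of genes outside the lists, those named for the ratios farthest below SyS cells had 0 to 18 UMIs in fibroblasts. *Adarb2*, a brain RNA-editing regulator overlapped by 3 genes on its strand, had 0 UMIs against 182 CPM, at least 66.4-fold lower, and *Nell1* had 0 against 106. The neuronal adhesion gene *Negr1*, the receptor scaffold *Grip1* and *1700006J14Rik* each had 1 UMI against 228, 154 and 201 CPM, and the ratio of *Negr1* was 250-fold (44.9 to 9874) lower. *Sorcs1*, *Epha5*, *Dab1* and *Fat3* were at 3.66 to 16.4 CPM against 256 to 907 CPM.

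Few fibroblasts held mitotic transcripts. After thinning to 2000 UMIs, 2 of 119 fibroblasts (1.68%, 0.204% to 5.94%) held *Mki67* or *Top2a*, both expressed in dividing cells, against 33.2% of 765 SyS cells (29.9% to 36.7%) and 14.8% of 750 macrophages. Unthinned, the shares were 11.4%, 58.3% and 26.6%. Of 14 proliferation genes, 10 were called lower and 0 higher (median log2 ratio -2.54). A cell of 36451 UMIs, among those with the highest Scrublet scores, held 53.5% of the list's fibroblast UMIs, and without it 13 genes were called lower with a median of -3.70. *Top2a* was at 57.6 against 315 CPM with that cell included.

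Against pericytes, the other matrix-producing stromal cells of PD+MP, the fibroblasts held more RNA of the type I and III collagens and less of *Acta2* and *Tagln*. These values set 123 fibroblasts beside 38 pericytes (253724 UMIs). The gates of both sets used the rule genes and *Rgs5* in opposite directions. The direction of genes expressed together with these is therefore partly set by the choice. *Col1a1* was 6.51-fold higher in fibroblasts (5.95 to 7.13) and *Col3a1* 5.5-fold higher. The fibrillar chain *Col5a3* went the other way, at 206 CPM in fibroblasts and 370.5 in pericytes. *Lbp* and *Cilp* had 0 UMIs in pericytes and were at least 20.7-fold and 47.7-fold higher in fibroblasts, against a floor of 3 counts. *Acta2* was at 138 CPM in fibroblasts and 3629.9 in pericytes, *Tagln* at 302 and 2219, and *Notch3*, a receptor of mural cells, at 33.8 and 662. The basement membrane gene *Col4a1* was likewise lower, at 276 and 3996 CPM, as were *Pdgfrb*, at 104 and 591, and *Igfbp7*, at 1713 and 3764. Pericytes also held more of the cytokine genes *Il6* (351 against 51.2 CPM) and *Cxcl1* (1048 against 506 CPM), so these 2 were not particular to fibroblasts.

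The fibroblasts of PD+MP varied among themselves. Clustering of their own counts gave 4 groups of 38, 38, 26 and 21 cells, with median depths of 10111, 8023.5, 5973.5 and 6820 UMIs. The leading components held 11.5% and 7.21% of the variance. Another 11 settings gave 4 to 7 groups, with an adjusted Rand index to these 4 of 0.471 to 0.980, so the borders moved with the settings. The genes below also drew the groups, and their levels are given as a description with no test. Of the cells with the highest Scrublet scores, the groups held 2, 1, 0 and 1.

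**Figure D3:**
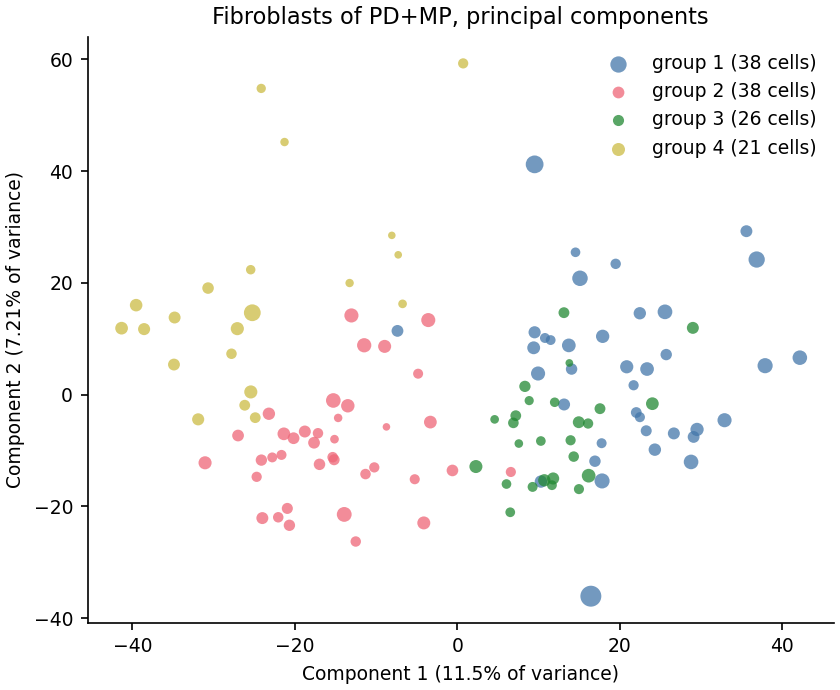
The 123 PD+MP fibroblasts on the leading principal components of their counts (axes in component scores, with the percent of variance), colored by group; a larger point is a cell with more UMIs. Groups 1 and 3 lie to the right and groups 2 and 4 to the left, without gaps between neighbors.

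Group 1 carried the contractile and fibrotic genes. It held 138 of the 151 *Acta2* UMIs (310.3 CPM, in 22 of 38 cells) and 308 of the 330 *Tagln* UMIs. *Igfbp3* stood at 5714 CPM there against 246 CPM in the other groups, and the matricellular glycoprotein *Tnc* at 632 CPM against 43.5 to 135 in the others. *C1qtnf3*, *Cd59a*, *Col11a1* and *Col12a1* were further leaders. Of the 15 myofibroblast genes, 11 were at their highest in this group, where the list summed to 9653 CPM against 3623 to 4266 CPM elsewhere.

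Group 2 carried complement genes. *C3* was at 1459 CPM against 45, 29.3 and 963 CPM in groups 1, 3 and 4, *Cxcl1* at 1087 against 182, 480.5 and 262, and *Mmp3* at 518 against 83.2, 158 and 211. Of the 11 complement genes, 7 peaked here (list sum 6569 CPM against 1765 to 4906). The inflammatory list was divided, with sums of 3641 CPM in group 2 and 3779 CPM in group 3 against 1985 and 1333 in groups 1 and 4. Of its 17 genes, 8 peaked in group 2 and 5 in group 3, and *Il33* was lowest in group 2, at 196 CPM. Its other leaders were the lipid-handling genes *Fabp4*, *Lpl* and *Apoe*, the pentraxin *Ptx3*, the joint lubricant *Prg4*, *Sfrp4*, *Tppp3*, *Ifi27l2a* and the actin-severing *Gsn*. The cell with most of the MHC class II UMIs belonged to this group.

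Group 3 was led by *Apod*, at 4002 CPM against 492 CPM in the others, by the calcification inhibitor *Mgp*, at 14180 against 2648 CPM, and by the chemokines *Cxcl14* and *Ccl19* (at 2 identifiers in the files, of which the one used is listed first, so its reads may be split). Of 10 parenchymal genes, 8 were at their highest here, with a list sum of 7723 CPM against 982 to 3095. Pericytes held that list at 5806 CPM. The 7 pericyte markers without *Rgs5* also had their highest sum in group 3, at 434 CPM against 63.8 to 245 in the other groups and 4442 in pericytes. Of these 7, 3 peaked in group 3. *Lepr*, *Heyl*, *F2r* and *Ntrk2* also led group 3.

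Group 4 was led by *Dpp4*, at 466 CPM against 24.5 CPM in the others, with the semaphorin *Sema3c* at 1779.8 CPM, the complement shield *Cd55* at 1027 and *Igfbp5* at 2437. Of 16 adventitial genes, 10 peaked in group 4 and 5 in group 2 (list sums 10372 and 7581 CPM, against 1057 and 2531). The collagens were spread over all groups, with sums of 47930 to 63426 CPM. Yet their makeup differed: *Col3a1* was at 32031 and 29395 CPM in groups 2 and 4 against 15272 and 18692 in groups 1 and 3, while *Eln* was at 537 and 434 CPM against 3060.3 and 2654. *Pecam1* was found in all 4 groups, at 69.7 to 153 CPM.

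**Figure D4:**
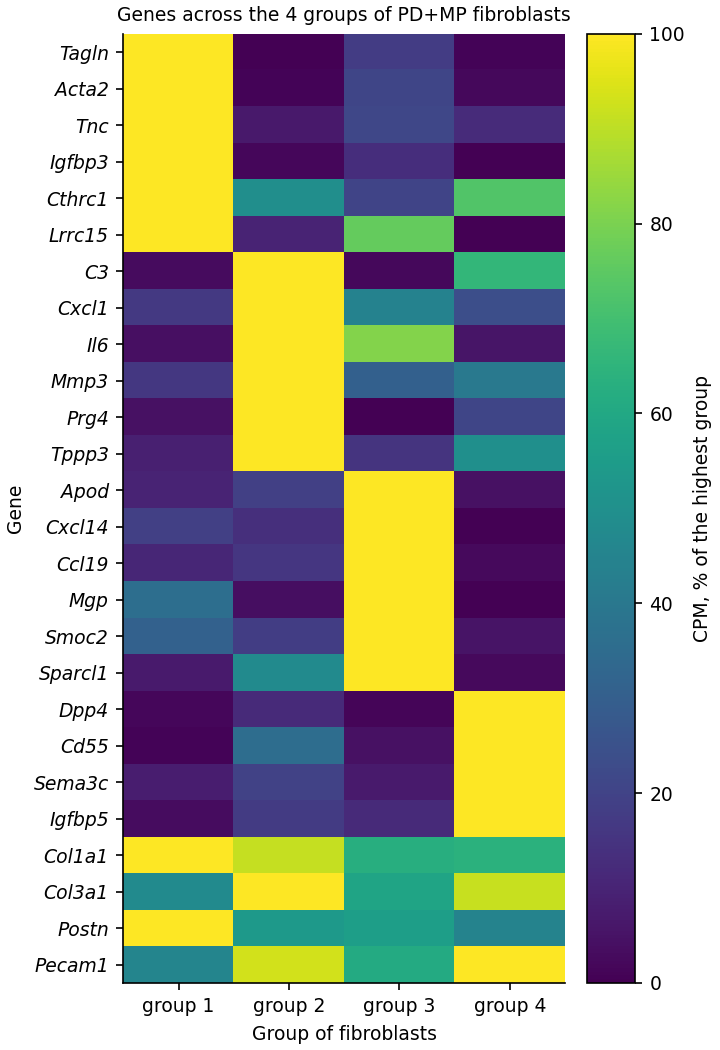
CPM of 26 genes in the 4 groups of PD+MP fibroblasts, each as a percent of its highest group (color scale, 0 to 100). *Tagln*, *Acta2* and *Igfbp3* are highest in group 1 and next in group 3, *Dpp4* is highest in group 4 and next in group 2, and *Col1a1* and *Col3a1* are present in all 4.

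The same genes differed in how many fibroblasts held them at equal depth. After thinning to 2000 UMIs, *Postn* was found in 80.7% of 119 fibroblasts, *Ly6a* in 62.2% (22.7% of macrophages), *Igf1* in 58.8% (10.7% of SyS cells and 39.5% of macrophages) and *Apod* in 50.4%. Narrower were *Il33* with 44.5%, *Cxcl1* with 36.1%, *Tagln* with 19.3%, *Dpp4* with 12.6%, *Acta2* with 11.8% and *Il6* with 7.56%. Of these genes other than *Ly6a* and *Igf1*, SyS cells and macrophages held each in at most 2%. *Pecam1* gave 21% against 7.84% of SyS cells and 10% of macrophages.

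The 18 members of the other tumors were too few for a test across tumors and are given by tumor. In MP+BP, the 9 cells (33597 UMIs, median 3262 each) had *Dcn* at 7590 CPM, *Col3a1* at 6786, *Bgn* at 3602 and *Serping1* at 2976 CPM, each in 9 of 9 cells, and 0 UMIs of EGFP. *Apod* was at 6757 CPM in 8 cells, *Lbp* at 655 in 5, *Cd34* at 238 in 4 and *Ly6a* at 833 in 3. Without *Rgs5*, their 7 pericyte markers summed to 536 CPM, against 2726 CPM in MP+BP pericytes and 206 CPM in the fibroblasts of PD+MP. Of these markers, 1 had enough UMIs to test and was called higher than in SyS cells. Against the SyS cells of the same tumor, 140 of 733 genes (19.1%) were called higher. Of these, 103 were also called in PD+MP, which is 73.6% of the MP+BP calls and 79.8% of the 129 PD+MP calls that could be tested in MP+BP. The SyS cells of MP+BP held more collagen RNA than those of the other tumors, with 157 CPM of *Col3a1* against 12.8 to 26.3.

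The 6 cells of BP replicate 1 fitted the name less well. They held 0 UMIs of *Dpt*, *Pi16* and *Clec3b*, and 0 of *Ly6a*, *Cd34*, *Lbp*, *C3* and *Mmp3*. Their *Dcn* was at 953 CPM, and *Bgn* at 70.1 CPM against 935 in the pericytes of that tumor. EGFP was found in 2 of 6 cells (28 CPM, against 42 in SyS cells), the SyS marker *Tle1* in 5 and *Pecam1* in 4, while *Rgs5* was at 0. *Col3a1* was nonetheless at 9084 CPM, *Col1a2* at 3827 CPM and *Ccl11* at 869 CPM, all in 6 of 6 cells, against 121 CPM of *Ccl11* in PD+MP. These cells are therefore best called collagen-high cells with 4 or 5 of the rule genes. Of 1846 genes tested there, 171 (9.26%) were called higher. Of these 171, 86 were also called in PD+MP, or 50.3% of the calls in BP replicate 1 and 65.6% of the 131 PD+MP calls testable there.

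All 3 cells of MP (12296 UMIs) were among the 477 cells of that tumor with the highest Scrublet scores, and without those cells 0 were left. Scrublet's own threshold marked 119 cells of MP, and whether the 3 were among them is not given here. The 3 members had *Dcn* at 6181 CPM, *Col3a1* at 9434, *Bgn* at 5286 and *Eln* at 244 CPM, each in 3 of 3 cells, with 0 UMIs of *Postn*, *Ly6a*, *Lbp* and EGFP. Without *Rgs5*, their 7 pericyte markers summed to 895 CPM, against 3798 CPM in MP pericytes and 206 CPM in the fibroblasts of PD+MP. Of 227 genes tested, 61 (26.9%) were called higher, and 38 of them were also called in PD+MP (62.3% of the MP calls and 90.5% of the 42 PD+MP calls testable there).

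*Col3a1*, *Nid1*, *Igfbp4* and *Eln* had UMIs in the members of all 4 tumors that held any. *Col3a1* was highest in PD+MP at 22762 CPM and lay at 6786 to 9434 CPM in the others. *Nid1* was at 476 to 976 CPM and *Igfbp4* at 488 to 3215 CPM. *Eln* was at 1878 CPM in PD+MP against 28 to 244 CPM elsewhere, the last resting on 3 UMIs. With 3 to 9 cells in each of the other tumors, differences between tumors in these levels were not tested.

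**Figure D5:**
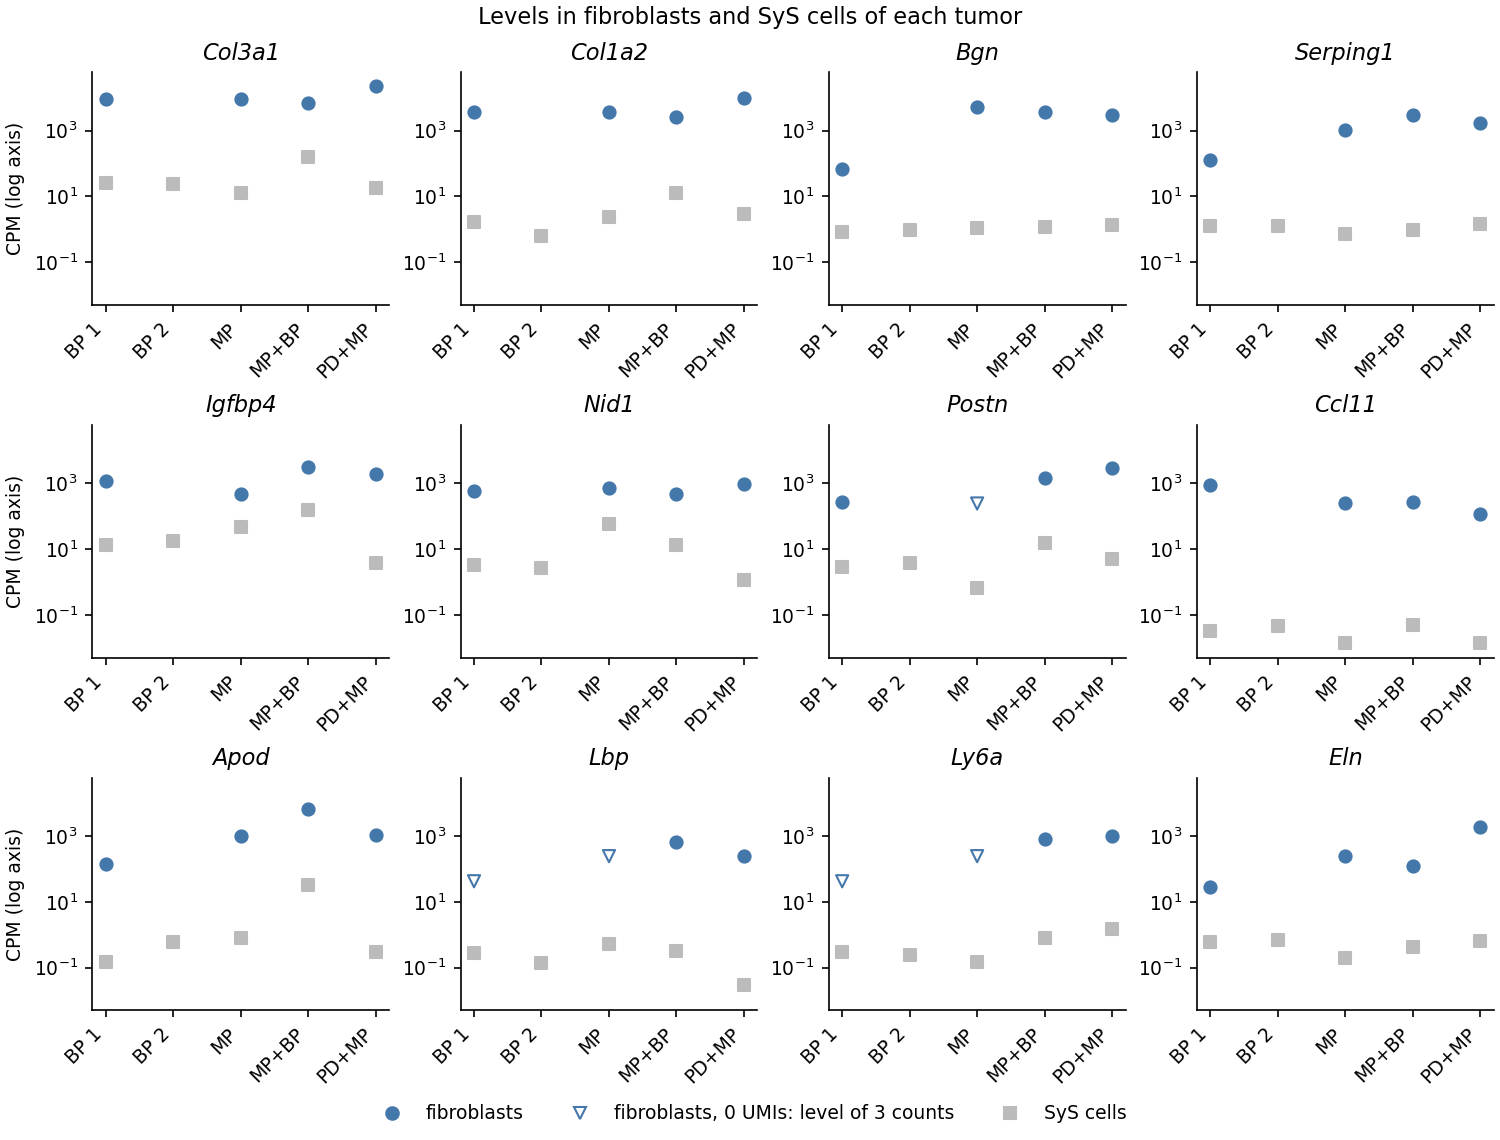
CPM (log axis) of 12 genes in the members summed over each tumor (circles; open triangles mark the level of 3 counts where 0 UMIs were found) and in its SyS cells (squares); BP replicate 2 had no members. *Col3a1* and *Col1a2* stand above SyS cells in all 4 tumors with members, while *Bgn* is much lower in BP replicate 1, and *Lbp* and *Ly6a* had UMIs in the members of PD+MP and MP+BP only.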

How the data were processed

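Droplet-based 3′ single-cell libraries of 5 tumors were sequenced. The authors deposited unnormalized UMI counts as 1 filtered matrix of 32286 features per tumor, made by Cell Ranger 7.2.0 per the headers. No release of the reference beyond mm10 is given in the sources used here. Of the features, 32158 occurred in GENCODE M21 (GRCm38), which gave the coordinates. The authors used DoubletFinder against doublets in their own downstream analysis, in the step that dropped cells under 750 genes. The deposited matrices still held such cells, and no removal of free RNA is stated in the sources used here.

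Members, gene lists and rules were chosen with earlier results of these data known. Cells were kept with at least 750 genes and at most 25% mitochondrial UMIs. Macrophages were gated by at least 10 summed C1q UMIs, pericytes by at least 3 of *Rgs5*, and endothelial cells by *Cdh5* and *Pecam1*, each without the other gates' genes. Counts were summed per gate and tumor and given as CPM, with exact Poisson and exact conditional 95% intervals (scipy 1.17.1); genes with 0 UMIs were set to a floor of 3 counts. An edgeR test across tumors was planned for 3 or more tumors with 10 or more fibroblasts. Only 1 had them, so it was not run, and edgeR 4.0.16 served only for the TMM factor. Named were the list members with the largest and smallest ratios and, outside the lists, the 15 genes with the highest lower bound and the 10 with the lowest upper bound among genes found in at least 20% of cells, with EGFP, *Ss18*, *Hic1* and *Penk*; other genes were named after their values were seen, and 1 gene under this rule is not reported here. Cells were clustered with scanpy 1.11.5 and leidenalg 0.10.2 on 1000 features by Pearson residuals, 10 components and resolution 0.5. Scrublet was run per tumor at 0.8% expected doublets per 1000 cells. Its automatic threshold marked 0 cells in MP+BP and PD+MP, where 7.45% and 6.76% were expected, and why was not tested. In every tumor, the highest scores up to the expected share were therefore marked, also where that threshold had marked fewer cells (119 against 477 in MP). The mark is a rank of scores and not a call by Scrublet. It fell on 0 of 6 members in BP replicate 1, 3 of 3 in MP, 0 of 9 in MP+BP and 4 of 123 in PD+MP. Marked cells were kept in the values reported, and their removal was an alternative. The ratio was tested on simulated data with known changes. Other thresholds, scalings, SyS gates and filters on low counts were tried.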

Additional observations from a re-analysis of the deposited data

How the results depend on the processing

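The number of fibroblasts in the small sets moved with the rule. With at least 5 rule markers, 1 was left in BP replicate 1, 1 in MP and 5 in MP+BP (118 in PD+MP). With at least 1500 genes per cell, 5 were left in MP+BP, and without the highest Scrublet scores 0 were left in MP. Leaving out each tumor gave totals of 18 (without PD+MP) to 141 (without BP replicate 2). Of genes called in PD+MP, a minimum of 30 UMIs left 654 higher and 776 lower by its own construction, as fewer genes were tested, and no filter gave 5668 higher. TMM scaling gave 1132 higher and 1028 lower, and the 71 members without *Ptprc*, *Pecam1*, *Epcam* or *Sox2* gave 779 and 1192. The other alternatives gave 983 to 1002 higher and 1344 to 1493 lower. Of 299 named or listed genes with a ratio, 0 called ones reversed under any of these alternatives. TMM scaling ended 3 of their calls (*Scx*, *Aurka*, *Insm1*) and gave 8, the 71 members ended 5 (*Col4a1*, *Fgf18*, *Igf1r*, *Gpc3*, *Pax7*) and gave 9, and a mean over cells in place of sums ended 7 and gave 6. The removal of 1 cell, and the other clustering settings, were chosen after seeing the data. The paired test and its alternatives were not run, because only 1 tumor had the minimum of 10 fibroblasts set for it. Depth limits the 3 small sets most, where 3 counts are worth 42.1 CPM in BP replicate 1, 89.3 in MP+BP and 244 in MP, against 2.74 in PD+MP.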

Other observations

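Genes of tendon and synovial lining were present in part of the PD+MP fibroblasts. Of 8 such genes, 7 were tested, 5 were called higher than in SyS cells and 1 lower, with a median log2 ratio of 4.98. *Thbs4*, a thrombospondin of tendon, had 197 UMIs in 24 of 123 cells (180 against 0.1 CPM). *Prg4* was in 23 cells at 52.1 CPM, of which 1 cell held 36.8%, *Comp* in 21 at 42 CPM and *Tnmd* in 8 at 17.4 CPM. The tendon factor *Scx* was the 1 called lower. Of 7 skeletal muscle genes, 3 were tested. The contractile genes *Ckm* (14 UMIs in 5 cells) and *Tnnt3* (12 UMIs in 11 cells) were called higher, and *Pax7*, a muscle stem cell factor present in SyS cells at 21.4 CPM, had 1 UMI. Of 6 cartilage genes, 2 were tested: *Col2a1* was lower at 21.9 against 277 CPM, and *Sox9* gave a ratio of 1.01 (0.78 to 1.28). Of 8 perineurial and endoneurial genes, 4 were tested, with 1 called higher and 1 lower.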
